A study of Macaca mulatta with 36 samples.

Results

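Voltage-gated sodium and calcium channels were examined in the hippocampus of rhesus macaques with and without SIVE, the encephalitis of animals infected with simian immunodeficiency virus. The members are the genes whose symbol begins with SCN and a digit or with CACN, read from probe sets that carry exactly 1 gene symbol. Where a gene had several, the brightest on average over the arrays stood for it. The rule gave 26 of the 14132 genes on the array, of which 14 encode pore-forming subunits and 12 encode auxiliary subunits. These genes have 41 probe sets, and 13 of them have more than 1. A further 14 channel genes that the RefSeq gene table of the assembly T2T-MMU8v2.0 lists, among them CACNA1A, CACNA1G, CACNA1H, CACNB4 and SCN2B, were not analysed here.

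Voltage-gated sodium channels open when the membrane depolarises and carry the rising phase of the action potential, and in neurons they are dense at the axon initial segment and nodes. Voltage-gated calcium channels turn depolarisation into calcium entry, which triggers transmitter release at presynaptic terminals and signals to the nucleus from the cell body and dendrites. In both families 1 large subunit forms the pore, and smaller subunits set its surface level and gating. Several gamma subunits of the calcium channel family are better known as partners of AMPA glutamate receptors.

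All 18 animals are male. The SIVE group holds 9 animals, of which 4 carry an anti-CD8 label, an antibody treatment that removes CD8 T cells, and 5 do not. The 9 control animals are uninfected, 2 with the anti-CD8 label and 7 without it. The 4 treated SIVE animals were 6 years old and the 5 untreated ones 2 to 5 years, while the treated controls were 3 and 4 years old and the untreated ones 3 to 8 years. The virus strain and the time since infection are not given in the sources used here. No infected animal without encephalitis is among the samples used here, so infection and encephalitis cannot be told apart.

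Total RNA of each animal was read on 2 arrays labelled technical replicates, which were averaged to 1 value per animal. Values are log2 signals, so a difference of 1 is a factor of 2, and levels of different probe sets cannot be set against each other. The median probe set level was 5.65, the array medians ran from 5.59 to 5.75, and the number of animals limits the precision. Markers of hippocampal neurons were measured in both groups: NEUROD6, a pyramidal cell transcription factor, was at 9.27 ± 0.61 (SD, n = 9) in SIVE and 9.27 ± 0.66 in controls. PROX1, which marks dentate granule cells, was at 8.44 ± 0.21 and 8.62 ± 0.24. SIVE 2, SIVE 3 and Control 8, all with the anti-CD8 label, stand apart by the 3′ minus 5′ signal of the array's control transcripts, which is high where RNA is degraded or copied short. These 3 animals lay between 0.955 and 1.45 (log2) and the other 15 between 0.10 and 0.47.

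The comparison of SIVE with control animals asked whether the channel genes differ between diseased and uninfected hippocampus. Of the 26 channel genes, 0 passed the threshold of 0.05 in limma after Benjamini-Hochberg adjustment over 52707 probe sets, where 4.92% of all probe sets passed (1.30% lower and 3.63% higher). At an unadjusted p under 0.05 there were 9 genes, 34.6% of the 26 against 21.2% of all probe sets and 25.6% of all genes at 1 probe set each. All 9 had a lower mean in SIVE, the direction in which 12.9% of all probe sets had such a p, with 8.39% higher. The 9 are CACNG7, CACNA1B, SCN4A, CACNA1E, CACNB3, CACNG5, CACNB1, CACNA2D1 and CACNG4. Over the 26 genes the median difference was -0.14 (log2) against -0.04 over all probe sets tested and -0.02 over all genes at 1 probe set each. Of the 26 differences 22 were below 0 (84.6%), against 62.7% of all probe sets and 55.6% of all genes. With each array centred on its median, 20 of 26 were below 0 and 4 genes had an unadjusted p under 0.05. The members' median was then -0.12 against -0.02 over all probe sets. Without SIVE 9 there were 5 such genes in place of 9, and leaving out any other single animal gave 6 to 9. In whole tissue, fewer cells of a type and less RNA per cell cannot be told apart.

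The members' differences were small. For 22 of the 26 genes the 95% interval of the difference, taken from limma's standard error and not adjusted for the number of genes, lay inside a 1.5-fold change in either direction. For all 26 it lay inside a 2-fold change. The 4 genes whose interval reached 1.5-fold were CACNG4, SCN7A, SCN8A and SCN1A. These bounds hold for the brightest probe set of each gene. A further probe set of SCN3B had an interval from -1.28 to 0.98, reaching 2.42-fold lower. A further one of CACNB2 reached 1.70-fold lower. Both group means of 6 genes lay below the median probe set level, where a narrow interval need not bound a change in RNA. In 0 of the 26 genes were the 9 SIVE and the 9 control animals without overlap, which was so for 1.30% of all probe sets.

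**Figure D1:**
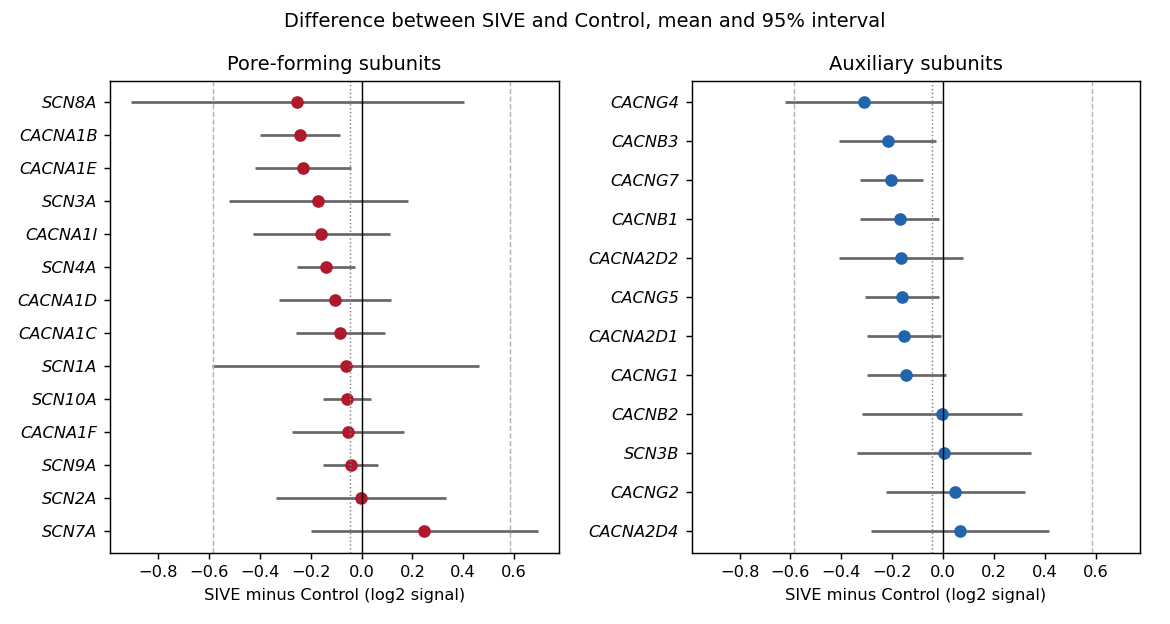
Difference between 9 SIVE and 9 control animals for each channel gene (x axis, log2 signal, SIVE minus control) with its 95% interval, pore-forming subunits on the left and auxiliary subunits on the right. The dashed lines mark a 1.5-fold change and the dotted line the median of all probe sets (-0.04); 22 of 26 points lie below 0 and most intervals stay between the dashed lines.

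CACNG7 encodes a gamma subunit that associates with AMPA receptors. Its signal in SIVE ran from 6.25 through a median of 6.44 to 6.57, and in controls from 6.53 through 6.56 to 6.82. In SIVE, 7 of 9 animals lay below the lowest control, and 4 controls lay above the highest SIVE animal. The difference was -0.20 ± 0.059 (SE), or 1.15-fold lower, with a limma adjusted p of 0.0519. That p lies beside the threshold, and CACNG7 passed under 8 of 30 other settings, with adjusted p from 0.0219 to 0.135. Among these 8 were quantile normalization (4.65% of all probe sets called) and the fit without SIVE 2, SIVE 3 and Control 8 (7.23%). The fits without SIVE 2 (5.72%), SIVE 3 (4.63%), SIVE 8 (4.48%) or Control 6 (5.19%) alone were others.

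CACNA1B encodes the pore of the N-type calcium channel, which drives transmitter release at many presynaptic terminals. SIVE animals ran from 10.62 through a median of 10.78 to 11.18, and controls from 10.87 through 11.11 to 11.27. Again 7 of 9 SIVE animals lay below the lowest control, while the highest SIVE animal lay above the control median. The difference was -0.24 ± 0.075 (SE), 1.18-fold lower (limma adjusted p = 0.0741). CACNA1B passed under 5 of 30 other settings, with limma adjusted p from 0.00659 to 0.174. Among the 5 was the fit to all 36 arrays with the animal as a random block (6.78% of all probe sets called). The untreated animals fitted alone (4.27%) and the fits without SIVE 1 (4.71%) or SIVE 2 (5.72%) alone were others. The other probe set of CACNA1B differed by -0.10 ± 0.059 (adjusted p = 0.357).

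SCN4A encodes the sodium channel of skeletal muscle, and its group means were both below the median probe set level. It ran from 5.38 through 5.48 to 5.64 in SIVE and from 5.43 through 5.65 to 5.76 in controls. All 9 SIVE animals lay below the control median, yet the ranges overlapped over most of their length. The difference was -0.14 ± 0.055 (SE; limma adjusted p = 0.154). Duplicate arrays of an animal differed with an SD of 0.130, above the SD of 0.102 between animals of a group.

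CACNA1E, the pore of the R-type calcium channel, was also dim. SIVE animals ran from 4.56 through 4.88 to 5.18 and controls from 4.88 through 5.09 to 5.47, and 4 SIVE animals lay below the lowest control. The difference was -0.23 ± 0.090 (SE; limma adjusted p = 0.155), and the gene passed in 1 of 29 other settings, with the anti-CD8 label as a covariate, where 10.0% of all probe sets passed (adjusted p = 0.0437, with a range of 0.0437 to 0.300 over those settings).

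CACNB3 encodes a cytoplasmic beta subunit that brings calcium channel pores to the cell surface. It ran from 8.22 through 8.46 to 8.77 in SIVE and from 8.36 through 8.70 to 9.08 in controls, with 8 of 9 SIVE animals below the control median. The difference was -0.22 ± 0.092 (SE; limma adjusted p = 0.181). CACNG5, another gamma subunit that binds AMPA receptors, ran from 6.49 through 6.69 to 7.01 in SIVE and from 6.69 through 6.89 to 7.13 in controls. The difference was -0.16 ± 0.070 (SE; adjusted p = 0.191), and the ranges shared most of their length.

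**Figure D2:**
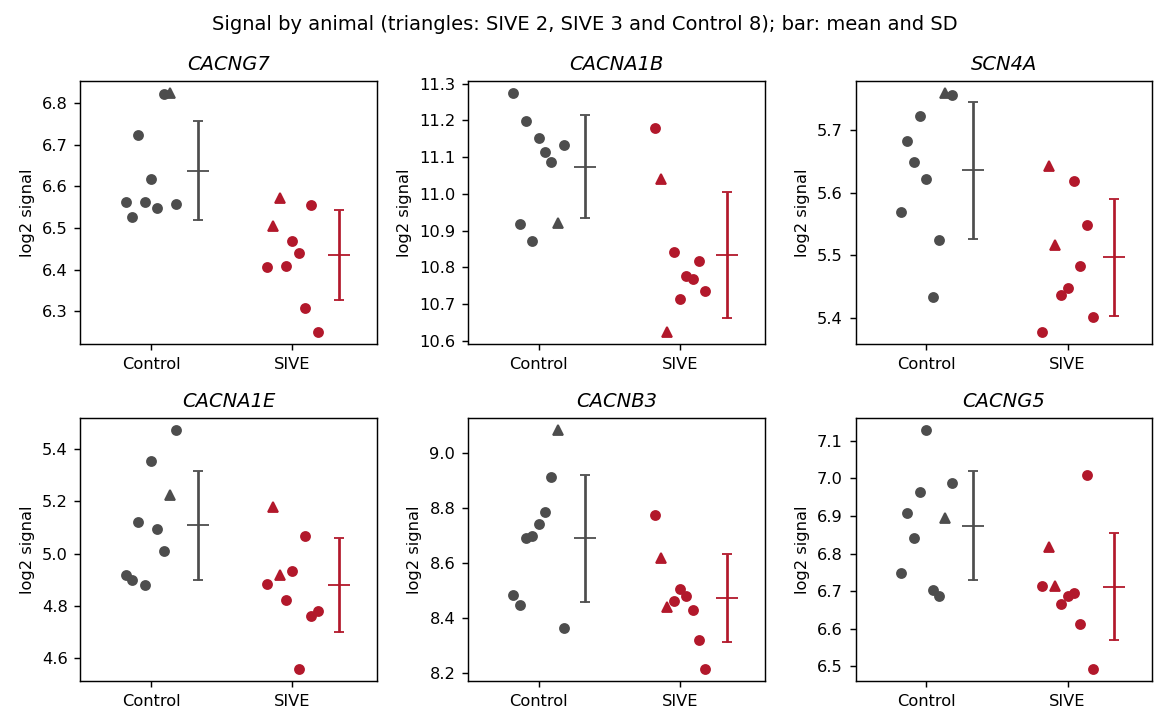
Signal of each animal (y axis, log2, a separate scale in each panel) for the 6 channel genes with the smallest p, 9 controls in grey and 9 SIVE animals in red, with the group mean and SD at the right of the points. Triangles mark SIVE 2, SIVE 3 and Control 8; in every panel the groups overlap, and for CACNG7 and CACNA1B 7 SIVE animals lie below the lowest control.

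Among the 8 sodium channel pore genes 0 passed, 7 differences were below 0 and the median was -0.06. SCN2A carries much of the sodium current of excitatory neurons. It ran from 9.37 through 10.18 to 10.48 in SIVE and from 9.10 through 10.15 to 10.31 in controls. The means differed by -0.0032 ± 0.16 (SE), with a 95% interval from -0.34 to 0.33, so a change of up to 1.26-fold either way lies within the error.

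SCN1A is the main sodium channel of parvalbumin interneurons and, in the human gene, a cause of epilepsy when lost. It ran from 5.81 through 6.92 to 7.18 in SIVE and from 5.55 through 6.95 to 7.39 in controls, a difference of -0.06 ± 0.25 (SE). SCN8A, found at mature initial segments and nodes, ran from 6.07 through 7.79 to 8.29 in SIVE and from 6.31 through 7.76 to 8.26 in controls. Its difference of -0.25 ± 0.31 (SE) had the widest interval among the members' brightest probe sets, reaching 1.88-fold lower and 1.32-fold higher. For both genes the spread within a group was larger than the difference between the groups.

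SCN3A, which is most active in the developing brain, differed by -0.17 ± 0.17 (SE). SCN9A and SCN10A, best known from sensory neurons, differed by -0.04 ± 0.051 and -0.06 ± 0.045, and both were below the median probe set level. SCN7A, a sodium-sensing channel that is found in glia and does not open with voltage like its relatives, had the only difference above 0 among the pore genes. It ran from 4.34 through 4.78 to 5.94 in SIVE and from 3.97 through 4.55 to 5.54 in controls, a difference of 0.25 ± 0.21 (SE; limma adjusted p = 0.528). Its level too stayed below the median probe set level in the mean of each group.

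In the RefSeq gene order, 5 of these sodium channel genes form a cluster in the order SCN3A, SCN2A, SCN1A, SCN9A and SCN7A, with 0 to 3 other protein-coding genes between neighbours. Their differences ran from -0.17 for SCN3A to 0.25 for SCN7A, and 0 of them passed. The genes CACNG5, CACNG4 and CACNG1 follow each other with 0 genes between them, and their differences of -0.16, -0.31 and -0.14 were all below 0 without passing.

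All 6 measured calcium channel pore genes had a mean below that of controls, with a median difference of -0.13, and 0 passed. Besides CACNA1B and CACNA1E these include the L-type pores CACNA1C and CACNA1D, which couple depolarisation of the cell body to transcription. CACNA1C had group means below the median probe set level and differed by -0.08 ± 0.084 (SE), and CACNA1D differed by -0.10 ± 0.11. The T-type pore CACNA1I, which opens at low voltages, differed by -0.16 ± 0.13. CACNA1F, the L-type pore of photoreceptor terminals, differed by -0.05 ± 0.10. For these 4 genes the 95% interval included 0, and 0 of the 6 pore genes reached a 1.5-fold change in its 95% interval.

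Of the 12 auxiliary subunit genes 0 passed, 9 were below 0 and the median was -0.16. SCN3B, the measured sodium channel beta subunit and a cell adhesion type protein, was nearly level between the groups. It ran from 10.94 through 11.81 to 12.01 in SIVE and from 11.13 through 11.56 to 12.22 in controls, a difference of 0.0027 ± 0.16 (SE; 95% interval from -0.34 to 0.34).

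The calcium channel beta subunits bind the pore from the inside. CACNB1 ran from 6.80 through 7.27 to 7.38 in SIVE and from 7.20 through 7.39 to 7.57 in controls, with 9 of 9 SIVE animals below the control median, and differed by -0.17 ± 0.074 (SE; limma adjusted p = 0.194). CACNB2 differed by -0.0047 ± 0.15. The alpha 2 delta subunits sit on the outer face and carry pores to the terminal, and CACNA2D1 and CACNA2D2 are the targets of gabapentin. CACNA2D1 ran from 5.36 through 5.51 to 5.62 in SIVE and from 5.36 through 5.78 to 5.82 in controls, so that 6 of 9 controls lay above the highest SIVE animal. It differed by -0.15 ± 0.070 (adjusted p = 0.215), CACNA2D2 by -0.16 ± 0.12, and CACNA2D4, a subunit of the retina, by 0.07 ± 0.17.

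Among the gamma subunits, CACNG4 had the largest difference of all 26 members, -0.31 ± 0.15 (SE), or 1.24-fold lower (limma adjusted p = 0.231). It is a partner of AMPA receptors found in neurons and in glial precursors. SIVE animals ran from 6.27 through 7.02 to 7.30 and controls from 6.75 through 7.17 to 8.06, and 3 controls lay above the highest SIVE animal. The mean signal of 5 measured genes listed as markers of oligodendrocyte precursors ran from 6.85 to 7.55 in SIVE and from 7.31 to 8.32 in controls. Of the 5, 2 fell in limma, SOX11 by 0.56 ± 0.12 (SE, adjusted p = 0.00941) and BCAN by 0.51 ± 0.13 (adjusted p = 0.0335). CSPG4 (-0.20, adjusted p = 0.119), OLIG2 (-0.34, adjusted p = 0.224) and GPR17 (-0.44, adjusted p = 0.336) had lower means that did not pass. Over all probe sets, 1.30% were called lower. The list was chosen with earlier results of these data known, so the 2 calls describe the list and are no independent test. The part of oligodendrocyte precursors in the CACNG4 difference was not tested. CACNG2, or stargazin, the founding AMPA receptor partner, differed by 0.05 ± 0.13, and CACNG1, a subunit of the muscle calcium channel, by -0.14 ± 0.074.

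The 15 further probe sets of the 13 genes that have more than 1 gave a second reading. All 15 had a lower mean in SIVE, with a median difference of -0.20 and a range from -0.32 to -0.03. Of these, 6 had an unadjusted p under 0.05 (21.2% of all probe sets) and 0 passed limma's adjusted threshold (4.92% of all probe sets). A second probe set of CACNB3 differed by -0.32 ± 0.11 (SE; adjusted p = 0.106) and a second one of CACNB1 by -0.28 ± 0.098 (adjusted p = 0.115). For SCN8A the second probe set, with both group means below the median probe set level, differed by -0.21 ± 0.068 (adjusted p = 0.0791). Its SD between animals was 0.138 in place of 0.721. The brightest gave -0.25, with SIVE 2, SIVE 3 and Control 8 at 6.07, 6.07 and 6.31 against 7.29 to 8.29 in the others. In the second probe set these 3 animals were at 5.12, 5.05 and 5.38 against 5.12 to 5.70, so the 2 differences do not rest on the same animals. For SCN2A the second probe set differed by -0.20 ± 0.084 (adjusted p = 0.178), where the brightest gave -0.0032. For SCN7A, CACNA2D4 and SCN3B the other probe sets had the opposite sign to the brightest, with 0 calls.

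**Figure D3:**
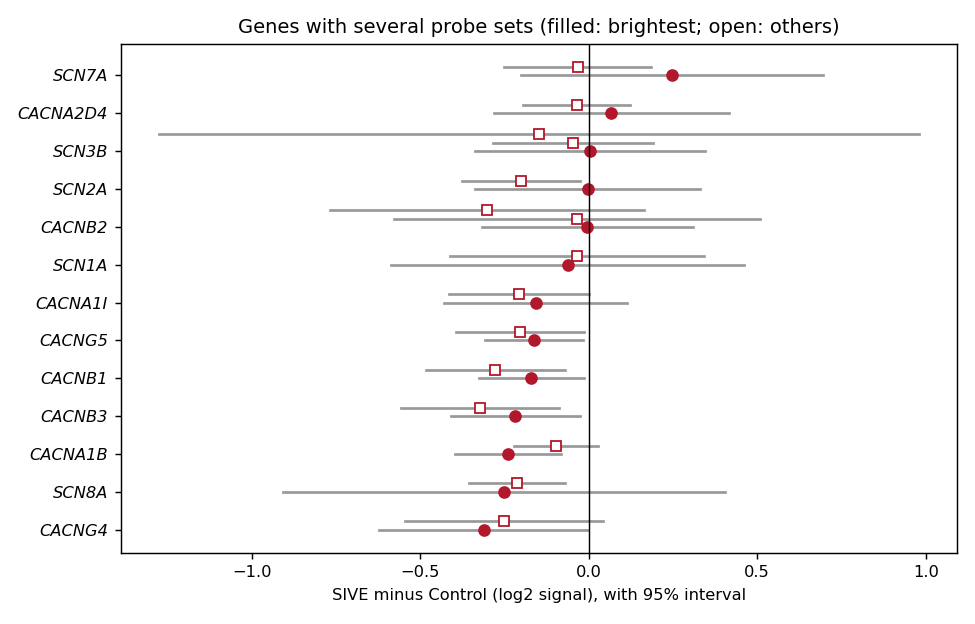
SIVE minus control difference (x axis, log2 signal) with its 95% interval for every probe set of the 13 channel genes that have more than 1, the brightest filled and the others open. All 15 open points lie below 0, from -0.32 to -0.03, and intervals of 1 gene differ widely in width, as for SCN8A and SCN3B.

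Among the brightest probe sets, SCN8A had the widest spread between animals. There SIVE 2, SIVE 3 and Control 8, of high 3′ signal, were at 6.07, 6.07 and 6.31 against 7.29 to 8.29 in the others. For SCN2A they were at 9.62, 9.37 and 9.10 against 9.93 to 10.48, and for SCN3B at 10.94, 11.26 and 11.13 against 11.34 to 12.22. In all, the 3 animals lay below all other 15 for 5 channel genes, SCN3A, SCN8A, CACNB2, SCN2A and SCN3B, 19.2% of the members against 8.91% of all probe sets. They lay above all other 15 for 3 genes, CACNA1I, CACNA1F and CACNG2, 11.5% against 5.58%. A further probe set of SCN3B had the widest split, with 6.44, 7.38 and 5.96 against 9.11 to 10.14. The part of RNA quality in these levels was not tested.

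Without the 3 animals SCN8A differed by -0.03 ± 0.15 (SE) in place of -0.25, SCN2A by 0.03 ± 0.084 and SCN3B by 0.10 ± 0.13, and 0 of these passed. The count of genes with a difference below 0 was then 19 of 26, and CACNG7 alone passed (-0.21, limma adjusted p = 0.0450), where 7.23% of all probe sets passed. With the 3′ minus 5′ signal as a covariate CACNG7 was again the single member called, where 9.18% of all probe sets passed.

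The 2 arrays of an animal were also compared with each other. Sample titles call them technical replicates while the series text speaks of duplicate samples, so their SD may hold differences between tissue pieces as well as array noise. The SD between the 2 arrays of an animal ran from 0.0348 for CACNA1B to 0.222 for CACNA1E, and the SD between animals of a group from 0.0718 for SCN10A to 0.721 for SCN8A. For 5 genes, SCN4A, CACNA1E, CACNG1, SCN10A and SCN9A, the duplicate SD was at or above the SD between animals. For the other 21 the SD between animals was the larger. It was taken on means of 2 arrays, so it holds part of the difference between arrays. With the replicate number as a block 0 of the 26 genes passed limma's adjusted threshold, where 2.60% of all probe sets did, and 4 had an unadjusted p under 0.05.

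**Figure D4:**
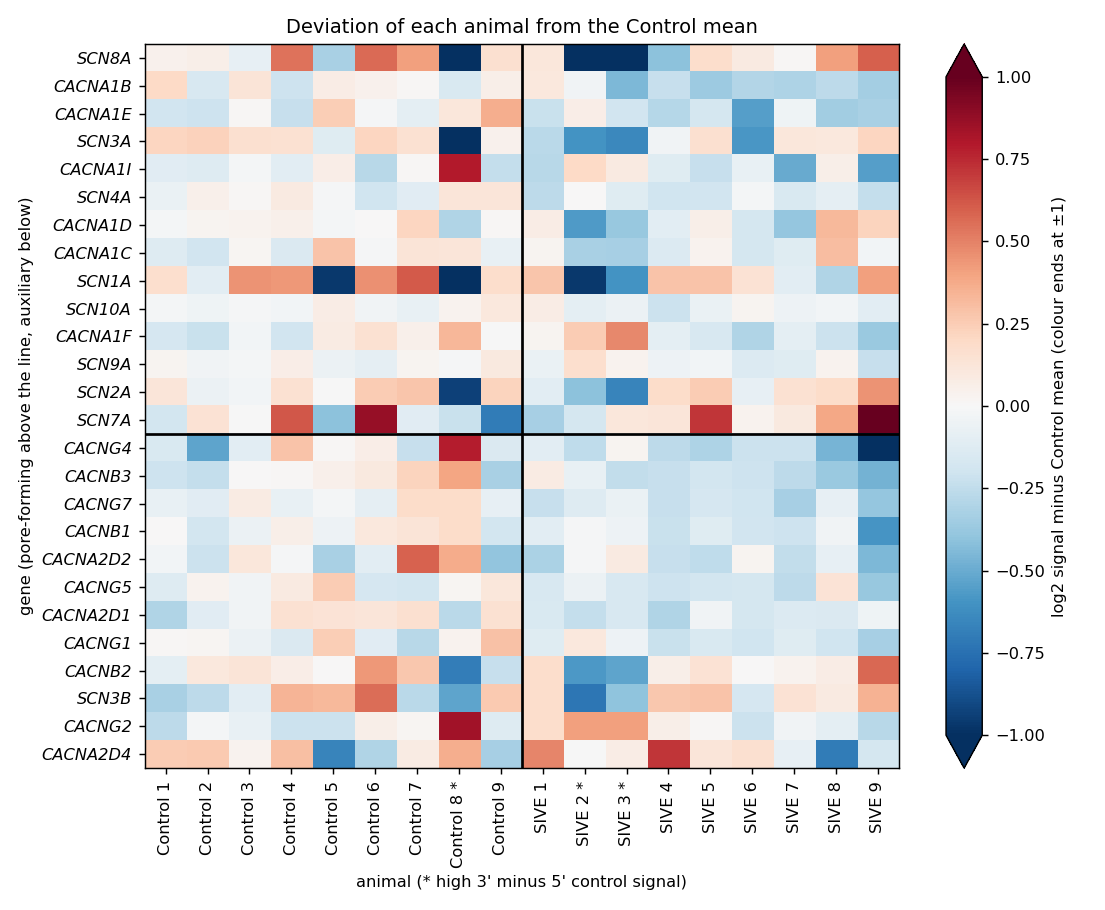
Log2 signal of each animal minus the control mean (colour, from -1 in blue to 1 in red, values beyond the ends at the end colours) for the 26 channel genes (rows) in 9 controls and 9 SIVE animals (columns). Asterisks mark Control 8, SIVE 2 and SIVE 3, whose columns are blue for SCN8A, SCN2A, SCN3A, CACNB2 and SCN3B; a shift over all SIVE columns is faint, with a median over genes of -0.14.

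The anti-CD8 label was unequal between the groups, so the SIVE difference was also taken within each label, from a model with 1 mean for each of the 4 combinations. Without anti-CD8, 5 SIVE animals against 7 controls, 0 of 26 genes passed limma's adjusted threshold (3.13% of all probe sets) and 5 had an unadjusted p under 0.05 (17.8%). With anti-CD8, 4 against 2 animals, 0 passed (1.05%) and 2 had such a p (15.5%). The treated SIVE animals were 6 years old and the treated controls 3 and 4, so age and SIVE cannot be told apart under this label. Differences below 0 numbered 20 and 19 of 26, and 16 genes were below 0 under both labels. The medians were -0.13 and -0.11, against -0.04 and -0.06 over all probe sets.

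CACNA1B differed by -0.33 ± 0.091 (SE, adjusted p = 0.0636) without anti-CD8 and by -0.10 ± 0.14 (adjusted p = 0.744) with it. CACNG7 differed by -0.22 ± 0.074 and -0.22 ± 0.11 under the 2 labels. CACNA1E differed by -0.22 ± 0.10 and -0.40 ± 0.15, and SCN7A by 0.37 ± 0.23 and 0.39 ± 0.34. The difference between the effects was tested directly: 0 of the 26 genes passed, as did 0.00% of all probe sets, and 0 members had an unadjusted p under 0.05 (2.81% of all probe sets). With 2 treated controls, 1 of which is Control 8, this test has low precision, and the 3 animals of high 3′ signal all carry the label. The treated SIVE animals and treated controls also differ in age. Without those 3 animals CACNA1B passed among animals without anti-CD8 (-0.33, limma adjusted p = 0.0313, against 0.0636 with them), where 4.77% of all probe sets passed against 3.13% with them. The difference is unchanged and rests on the same untreated animals. What changed is the spread that the model shares over all animals, and the adjustment.

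**Figure D5:**
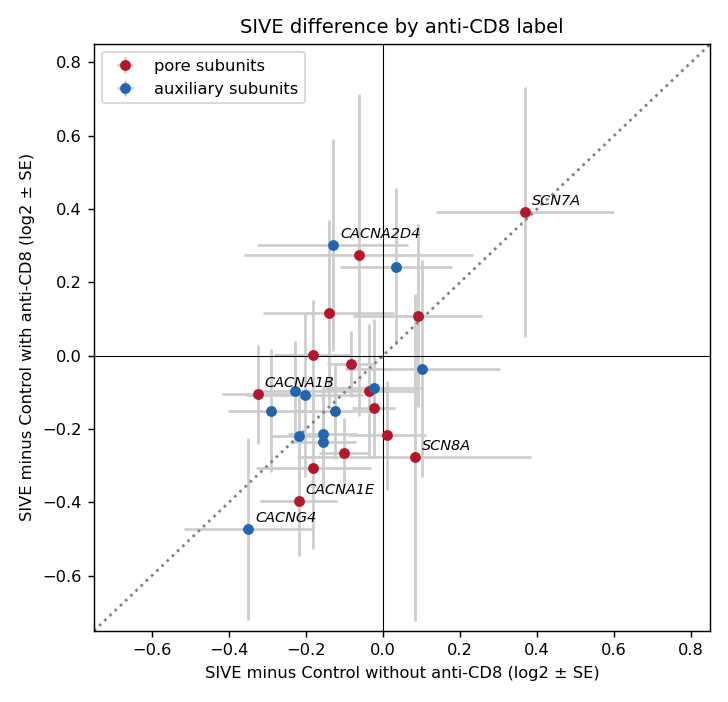
SIVE minus control difference of each channel gene without the anti-CD8 label (x axis, 5 against 7 animals) and with it (y axis, 4 against 2), in log2 signal with SE bars. The dotted line marks equal differences; CACNG7 is at -0.22 on both axes and CACNA1B at -0.33 and -0.10, and the vertical bars are the longer ones.

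Genes whose products bind, anchor or work beside these channels were read from 5 lists, with 34 of 51 genes measured. Of these, 0 passed limma's adjusted threshold (4.92% of all probe sets) and 8 had an unadjusted p under 0.05 (21.2%), 7 of them lower in SIVE. The median difference was -0.13, and 27 of 34 were below 0. Among 12 sodium channel partners and initial segment genes, TNR, a matrix protein of perineuronal nets, differed by -0.15 ± 0.060 (SE; adjusted p = 0.166) and FGF12, which binds the sodium channel tail, by -0.27 ± 0.12. Among 8 calcium channel partners STAC3, an adaptor of the muscle channel, had the smallest p, with a higher mean in SIVE by 0.31 ± 0.11 (adjusted p = 0.123).

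In the complex of the sodium leak channel 2 genes were measured, and UNC80, its scaffold, differed by -0.15 ± 0.060 (adjusted p = 0.156). Of 6 AMPA receptor genes and their other auxiliary subunits GSG1L differed by -0.25 ± 0.11 (adjusted p = 0.194). Of 6 two-pore and sperm channel genes CATSPER3, of the sperm calcium channel, differed by -0.16 ± 0.058 (adjusted p = 0.136). TNR, UNC80 and CATSPER3 had both group means below the median probe set level, with UNC80 lowest at 3.14 in SIVE and 3.29 in controls.

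Cell type markers were read beside the channels. Over all probe sets, limma called 3.63% higher and 1.30% lower. Of 6 measured neuron markers 2 fell in limma, the tubulin TUBB3 by 0.51 ± 0.12 (SE, adjusted p = 0.0118) and the vesicle protein SV2A by 0.27 ± 0.068 (adjusted p = 0.0241). Without passing, GAP43 (-0.29), STMN2 (-0.22) and SYT1 (-0.06) were lower and ENO2 (0.16) was higher. The mean signal of the 6 ran from 10.33 to 10.56 in SIVE and from 10.39 to 10.89 in controls. Of 6 inhibitory neuron markers 0 passed (from 7.79 to 8.11 against 7.87 to 8.54), and of 6 markers of excitatory hippocampal neurons 0 passed (from 9.00 to 9.97 against 8.94 to 9.83). Among 8 microglia and macrophage markers 3 rose, LYZ, PTPRC and AIF1, and the mean ran from 7.42 to 8.18 against 7.04 to 7.57. Another 4 of the 8 had differences below 0 that did not pass, P2RY12 (-0.44), ITGAM (-0.35), CX3CR1 (-0.15) and CD68 (-0.05). Of 6 endothelial and smooth muscle markers 3 rose, PECAM1, CDH5 and VWF (from 7.40 to 8.68 against 7.15 to 8.31). TAGLN (0.31) and CLDN5 (0.11) were higher and MYH11 (-0.20) lower without passing.

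Oligodendrocyte markers had 2 of 3 lower, MBP and UGT8 (from 11.02 to 11.51 against 11.21 to 11.66), while CNP was higher by 0.06 without passing. Astrocyte markers had GFAP higher and SLC1A2 lower among 5 (from 11.26 to 11.58 against 11.15 to 11.68). SLC1A3 (0.12) and S100B (0.11) were higher and ALDH1L1 (-0.20) lower without passing. Skeletal muscle markers, measured because SCN4A and CACNG1 are muscle genes, had 0 of 3 called (from 6.54 to 6.68 against 6.64 to 6.89). Choroid plexus markers had 0 of 5 called (from 6.08 to 6.75 against 6.00 to 6.48) and T cell markers 0 of 2 (from 5.62 to 6.16 against 5.64 to 6.22). The part of changed cell numbers in the channel differences was not tested.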

How the data were processed

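The deposited table holds log2 signals of 36 arrays, which the authors made with RMA, per the submitters' processing notes. RMA corrects background, normalizes arrays to each other and sums up the probes of a set. Its version is not stated in those notes. Of 52865 probe sets, 99 Affymetrix control and 59 reporter probe sets were left out and 52707 tested. Symbols came from a probe-to-gene table, with 24969 probe sets holding 1 symbol, 361 several and 27535 none, and all 26 members' gene IDs matched their RefSeq symbols.

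The 2 arrays of an animal were averaged. Two-sided tests used lmFit and eBayes of limma 3.58.1 (R 4.3.3), and p-values were adjusted by Benjamini-Hochberg across the 52707 probe sets. The step was also run on simulated data. Those values were drawn independently for each probe set and animal, with no animals of high 3′ signal. That run therefore does not show how the step behaves with such animals. Same-numbered SIVE and control animals had deviations that correlated between -0.488 and 0.0888. These values gave no sign of pairing by number, and no block was used. Differently numbered animals were not compared, so the check cannot exclude pairing. Tables and figures used Python 3.11.15. Values per animal are given for the 6 members with the smallest p, and for others where a result turns on them, chosen after their values were seen. The members and lists were chosen with earlier results of these data known. No sequence of a probe, promoter or protein is used here.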

Additional observations from a re-analysis of the deposited data

Results flagged for a closer look

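In 8 of 52 groups of 9 animals (26 genes in SIVE and in control animals) 1 animal lay far from the others by Dixon's 95% criterion on the gap to its neighbour over the group's range. Chance alone flags about 1 in 20 such groups. Control 8 gave 6 of the 8: CACNA1I at 8.84 (next control 8.11), CACNG2 at 8.79 (8.02), SCN2A at 9.10 (9.97), SCN3A at 7.32 (8.25), SCN8A at 6.31 (7.38) and CACNA1D at 6.09 (6.37). This animal had the highest 3′ minus 5′ control signal, 1.45, and the part of RNA quality in these values was not tested. SIVE 9 gave the other two, CACNB1 at 6.80 (next SIVE animal 7.17) and CACNG4 at 6.27 (6.81), and it is not among the animals of high 3′ signal.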

How the results depend on the processing

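The result of 0 members called was recomputed under 30 other settings, and 23 of 26 genes passed in none of them. Pore-forming subunits called lower numbered 1 (CACNA1B) with all 36 arrays and the animal as a random block, 2 (CACNA1B and CACNA1E) with the anti-CD8 label as a covariate, and 1 (CACNA1B) in the animals without anti-CD8 fitted alone. Auxiliary subunits called lower numbered 1, CACNG7 in each case, with quantile normalization, with the anti-CD8 label as a covariate, without the 3 animals of high 3′ signal, and with the 3′ signal as a covariate. Leaving out 1 animal gave 0 to 1 called for either class, where 3.90% to 5.72% of all probe sets passed. In any setting, 0 members were called higher. Among animals without anti-CD8, 1 member passed without the 3 animals (4.77% of all probe sets), with its difference unchanged. This setting was added after seeing the data. The replicate number as a block left 0 called (4 genes at an unadjusted p under 0.05) and took the probe sets called from 2595 to 1368. Over all probe sets the count called was 5294 with the anti-CD8 covariate (2785 of them lower, against 683), 4838 with the 3′ signal covariate and 3809 without the 3 animals. Centring arrays on their median gave 2159 higher and 398 lower in place of 1912 and 683. Differences of 18 members kept their sign in all settings run, and the other 8 changed sign without a call: SCN1A, SCN2A, SCN3B, SCN8A (0.08 in the animals without anti-CD8 alone), CACNA1C, CACNA2D4, CACNB2 and CACNG2. The members' median stayed between -0.16 and -0.09. The cause of these shifts was not tested. The SE of the members' differences, 0.0447 to 0.314, limits what could be called.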

Other observations

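The deviation from the control mean was averaged over the 26 channel genes. It ran from -0.22 (SIVE 2) to -0.014 (SIVE 5) in SIVE animals and from -0.08 (Control 8) to 0.10 (Control 6) in controls. All 9 SIVE means were below 0, as were those of Control 1, Control 2, Control 5, Control 8 and Control 9, and the ranges overlapped. The median difference over all probe sets was -0.04, and SIVE 1 (-0.035) and SIVE 5 did not lie below it. Over pore-forming subunits, SIVE 2 and SIVE 3 were at -0.29 and -0.31 and Control 8 at -0.27, while SIVE 9 was at 0.07. Over auxiliary subunits SIVE 9 was lowest, at -0.27, and Control 8 highest, at 0.14. These means are a description of the chosen genes and carry no test.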
